A study of Danio rerio with 12 samples.

Results

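Regions bound by p63 in the zebrafish gastrula were examined for later binding of Sox3. A gastrula p63 site was a region with a p63 peak in both libraries made at 80% of epiboly. Peaks of both lists were merged where they shared at least 1 bp, and 24810 of the resulting 53833 p63 regions were such sites, out of 154315 regions merged from all 12 peak lists of the series. The other 29023 p63 regions had a peak in 1 of the 2 lists. Peak strength played no part in the choice beyond the threshold of the authors' peak call.

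p63 belongs to the p53 family and is a regulator of the epidermis, where it is needed for the stratified skin, the fin fold and the appendage buds. Sox3 belongs to the SoxB1 group of HMG-box factors and is known for its role in neural progenitors. Both lineages arise from the ectoderm, which is divided into neural plate and epidermis during and after gastrulation.

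Binding was profiled in pools of whole embryos by ChIPmentation, a chromatin immunoprecipitation in which the Tn5 transposase adds the sequencing adaptors to the captured chromatin. All libraries at 80% of epiboly (gastrulation) and at 24 hours post-fertilization (hpf) came from wild-type (WT) embryos with no treatment named in the labels. p63 had 2 libraries at each of these stages and 2 from WT embryos at 36 hpf. Sox3 had 1 library at 80% of epiboly, 1 at 24 hpf, 2 from WT embryos at 36 hpf and 2 from tp63-/- embryos at 36 hpf, which carry a CRISPR/Cas9 deletion in every cell and lack p63 protein. Second Sox3 libraries of the earlier stages were left out by the study for low quality, so no Sox3 value at 24 hpf has a replicate check. Whole embryos mix neural, epidermal and other cells, so overlap of both factors in the same cell and in different cells cannot be told apart, nor can fewer cells of a type and less binding per cell.

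At 80% of epiboly, p63 replicate 1 gave 36652 peaks from 20.9 M tags (megatags), and replicate 2 gave 42668 from 25.1 M. The Sox3 list at 24 hpf held 67886 peaks from 11.6 M tags and that at 80% of epiboly 6045 peaks from 2.75 M. Tags are those behind the peak call, recovered from each list, and are not the number of reads sequenced. Both Sox3 stages therefore differ in depth as well as in age. A site counted as without Sox3 had no peak past the threshold of the call and may still have been bound more weakly.

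Sites were 102 to 2025 bp wide, with a median of 265 bp, and 97.4% of them consisted of 1 peak from each list. The median fold enrichment of the strongest p63 peak of a site, its tag pileup over the local background of the same library, was 6.33 in replicate 1 and 6.28 in replicate 2. Sites were ranked by the mean over both lists of the percentile of −log10 q, where q is the adjusted significance of the peak call. Ranks from replicate 1 and replicate 2 followed each other with a Spearman correlation of 0.689 over the 24810 sites, which share the same genomic regions and similar depth.

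Most gastrula p63 sites carried a Sox3 peak at 24 hpf. Of the 24810 sites, 15848 shared at least 1 bp with a Sox3 peak, which is 63.9% (95% Clopper-Pearson interval 63.3% to 64.5%). The background share was 42.6% of all regions of the series, which include the Sox3 peaks themselves, and 50.9% of all p63 regions at 80% of epiboly. The complete list of replicate 1 gave 55.5% and that of replicate 2 gave 54.2%. Intervals cover counting error only, and neighbouring sites are not independent.

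Sox3 intervals were moved along each chromosome by fixed distances to show how much overlap remained when the positions no longer corresponded. After the 8 shifts of 100 kb or more, 753 to 980 sites were overlapped, with a mean of 827 ± 73.2 (SD over shifts, n = 8), or 3.33% of the sites. The observed overlap was 19.2-fold higher, and 16.2-fold to 21.0-fold higher than single shifts. The peak-calling command listed by the study names no control library, and shifted positions were not matched for chromatin accessibility. How much of the excess comes from regions enriched in any such library was not tested. Shifts under 100 kb left a mean of 1023 overlapped sites and a ratio of 15.5. The Sox3 peaks covered 1.19% of the chromosome span seen in the lists.

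**Figure D1:**
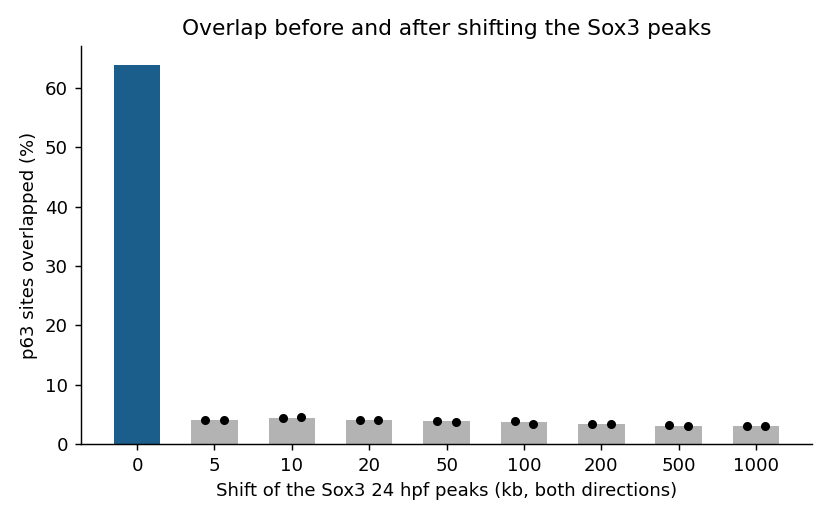
Share of the 24810 gastrula p63 sites overlapped by Sox3 24 hpf peaks in their own position (0 kb) and after shifts in both directions (x axis, kb; y axis, percent of sites; grey bars, mean of both directions; dots, each direction). The share is 63.9% in place and between 3.04% and 4.51% after every shift.

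Regions found in both p63 lists carried Sox3 more often than regions found in 1 list. The share was 63.9% in the sites and 39.9% (39.3% to 40.5%) in the 29023 regions with 1 list. The log2 odds ratio was 1.41 ± 0.03 (SE; two-sided Fisher's exact test, p = 1e-300, the smallest value written, adjusted over 4 tests p = 2e-300). Peaks found only in replicate 1 had 38.3% and those found only in replicate 2 had 40.9%. Regions of 1 list were also weaker. Their median fold enrichment was 5.39 and 5.13 in replicates 1 and 2. After shifts of 100 kb or more, 2.25% of these regions and 3.33% of the sites were overlapped. The excess over shifted intervals was 17.7-fold in these regions, against 19.2-fold in the sites. A site joins peaks of both lists, and the part of region width in the difference was not tested. Within quintiles of p63 strength of a list, peaks shared by both lists had the higher Sox3 share in each of 5 quintiles of both replicates, but in the strongest quintile the values were close, at 59.4% against 57.5% in replicate 1 and 62.0% against 61.5% in replicate 2. With all lists shortened to the length of the shortest, the order turned, with a log2 odds ratio of -0.71.

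Part of the overlap was already in place in the gastrula. A Sox3 peak at 80% of epiboly marked 4363 sites, or 17.6% (17.1% to 18.1%), against 3.88% of all regions of the series. Shifts of these Sox3 peaks by 100 kb or more left a mean of 82.4 overlapped sites, so the observed number was 53.0-fold higher. Of the 6045 Sox3 peaks of that stage, 72.4% lay at a site. Of the 4363 already shared sites, 91.3% (90.4% to 92.1%) carried Sox3 at 24 hpf. Of the 20447 sites without Sox3 at 80% of epiboly, 58.0% (57.3% to 58.7%) did so, which was 17.97-fold above the shifts. The log2 odds ratio between the groups was 2.93 ± 0.08 (SE; two-sided Fisher's exact test, p = 1e-300, adjusted p = 2e-300). The test covers counting error between the sites of these libraries. The gastrula Sox3 list came from fewer tags, and the part of depth in this grouping was not tested.

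Sites thus fell into 4 classes by the stages at which Sox3 had a peak. Sox3 appeared only at 24 hpf in 11864 sites (47.8%), at both stages in 3984 (16.1%), only at 80% of epiboly in 379 (1.53%) and at neither stage in 8583 (34.6%). Sites with Sox3 at both stages had the highest median p63 rank of the classes, 74.6, and a median width of 326 bp. Those with Sox3 only at 24 hpf had the lowest median p63 rank, 57.6, and a median width of 258 bp. The Sox3 peak at 24 hpf was stronger where it had been present before. Its median fold enrichment was 10.7 at sites of both stages and 8.20 at sites of 24 hpf only, with a median pileup of 40 and 23 tags.

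The gain with stage depended on how many Sox3 peaks were counted. When the 24 hpf list was shortened to its 6045 strongest peaks, the length of the gastrula list, 14.1% of the sites carried Sox3 at 24 hpf and 17.6% at 80% of epiboly. Both of these lists marked 1871 sites, which is 42.9% of those marked in the gastrula and 53.4% of those marked by the shortened list. Equal length is not equal depth, and whether more sites were bound by Sox3 at 24 hpf than in the gastrula was not tested.

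Sox3 occupancy did not follow p63 strength in one direction. From the weakest to the strongest p63 quintile, each of 4962 sites, the share with Sox3 at 24 hpf was 60.5%, 65.6%, 68.4%, 67.3% and 57.7%. The highest share was in the middle and the lowest in the strongest quintile, with an interval of 56.3% to 59.1% there and of 67.0% to 69.7% in the middle one. Strongest and weakest quintiles differed by a log2 odds ratio of -0.17 ± 0.06 (SE; two-sided Fisher's exact test, p = 0.00516, adjusted p = 0.00516). This small difference changed sign in 4 of 14 alternative settings. It was 1.17 without replicate 1 and 0.81 without replicate 2, where the sites are all peaks of the other list.

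The step from quintile 4 to the strongest quintile was larger, 9.59 percentage points (95% interval of the difference 7.70 to 11.5). It kept its direction in 13 of 14 settings, but not its size. It was 2.20 points without replicate 1, 4.91 without replicate 2 and 0.533 with all lists at the length of the shortest, where the interval of -2.39 to 3.46 includes 0. Ranking the same sites by 1 replicate alone gave 65.7% and 58.2% in these quintiles for replicate 1 and 67.7% and 58.7% for replicate 2. In finer steps, the share was lowest in the second strongest twentieth, at 52.2%, and was 58.9% in the strongest. In the 248 sites of the top hundredth by p63 rank it was 70.2% (64.0% to 75.8%). The 203 sites with a peak in all 12 lists carry Sox3 by definition. Without them the step from quintile 4 to the strongest quintile was 10.5 points, and the top hundredth without them was not tested.

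Other measures also varied along the p63 rank. Stronger sites were wider, with medians of 206, 229, 249, 293 and 401 bp from the weakest to the strongest quintile. Sites already shared in the gastrula made up 8.02%, 12.2%, 17.7%, 27.5% and 22.5% of the same quintiles. Without them the shares were 58.4%, 62.5%, 63.2%, 57.4% and 47.6%, again lowest in the strongest quintile. Relative to the shifts, which also pick up wider sites more often, the excess was 21.4-fold in the weakest quintile, 22.4-fold in the middle one and 13.9-fold in the strongest.

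**Figure D2:**
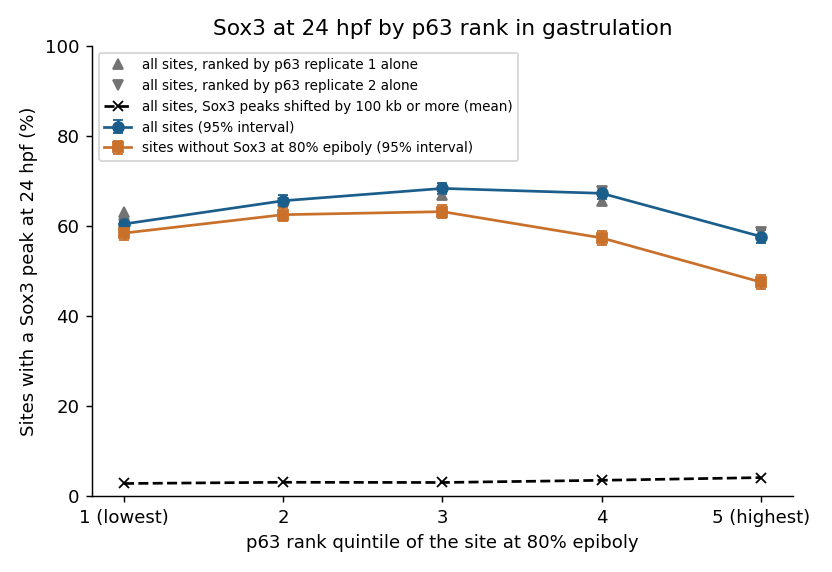
Percent of gastrula p63 sites with a Sox3 peak at 24 hpf (y axis) by p63 rank quintile (x axis). Blue points show all sites and orange squares the sites without Sox3 at 80% of epiboly, both with 95% intervals; grey triangles rank the sites by 1 p63 replicate alone and crosses give the mean after shifts of 100 kb or more. Shares of all sites run from 60.5% over 68.4% in the middle to 57.7%, and the strongest quintile is at 47.6% without the already shared sites.

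Width and p63 rank went with the Sox3 share in different ways. Among the widest sites, over 317 bp, the share was 77.0% in the weakest p63 quintile and 59.5% in the strongest. Among sites of 223 to 317 bp it was 66.3% and 50.1%. Among the narrowest sites it was 54.8% and 60.4%, but only 227 sites of the strongest quintile were that narrow. The fall from quintile 4 to the strongest quintile was thus present in the middle and wide sites and not in the narrow ones.

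Sox3 peaks at gastrula p63 sites ranked above the rest of the Sox3 list. The 15954 Sox3 peaks at sites, 23.5% of all Sox3 peaks at 24 hpf, had a median percentile of −log10 q of 75.5 (quartiles 52.7 and 89.5). The 51932 peaks away from sites had a median of 43.3 (quartiles 20.8 and 66.4). Median fold enrichment was 8.67 at sites and 6.55 away from them, and the median pileup 26 and 15 tags. Peaks at regions of 1 p63 list lay between, with a median percentile of 58.6. Those that touched no p63 region of the gastrula had 38.5.

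The medians at and away from sites differed by 32.2 percentile points, and by 31.0 when all peaks of replicate 1 or all peaks of replicate 2 took the place of the sites. With the Sox3 list shortened to its 6045 strongest peaks the difference was 5.44, and with all lists at the length of the shortest 14.1. Already shared sites had a median Sox3 percentile of 89.8 and the remaining sites 69.7. Away from sites, prior Sox3 also went with a higher Sox3 rank. The 1071 Sox3 peaks away from sites that met a gastrula Sox3 peak had a median of 72.9. Sox3 peaks at sites were also wider, with a median of 272 bp against 186 bp, and the part of width in their rank was not tested. Over the 15848 sites with Sox3, p63 rank and Sox3 rank had a Spearman correlation of 0.174.

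**Figure D3:**
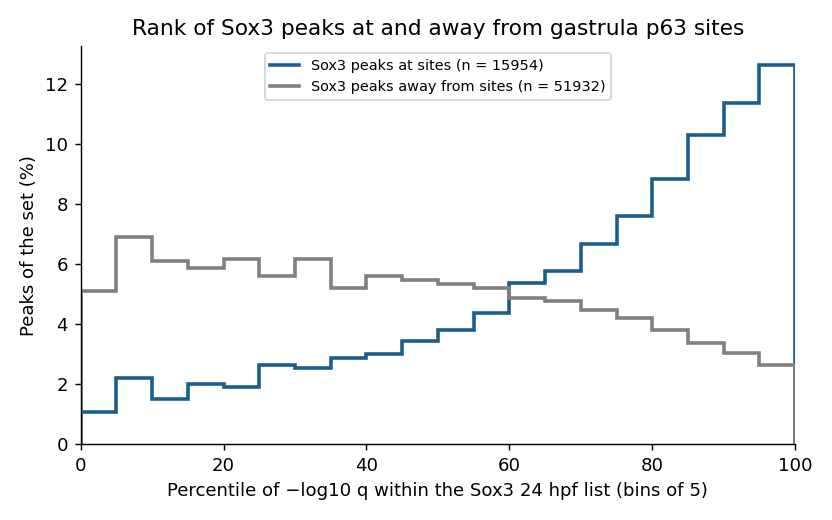
Distribution of Sox3 24 hpf peaks over the percentile of −log10 q within their list (x axis, bins of 5; y axis, percent of the peaks of each set) for peaks at gastrula p63 sites (blue) and away from them (grey). Peaks at sites are most frequent in the highest bin and have a median of 75.5, while those away from sites decline towards high ranks and have a median of 43.3.

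Read from the Sox3 side, the share of peaks at a gastrula p63 site rose with Sox3 strength in every step. It was 8.04%, 11.7%, 17.2%, 29.9% and 50.7% from the weakest to the strongest Sox3 quintile. After the shifts it was 0.974% to 1.62%, so the ratio went from 8.26 to 31.4. Median peak width went from 145 to 344 bp over the same quintiles. Of the 100 strongest Sox3 peaks 68 were at a site, and of the 1000 strongest 639.

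The summits of both factors lay close together. The median distance from the p63 summit to the nearest Sox3 summit of the site was 39 bp for replicate 1 and for replicate 2. Summits were within 100 bp of each other in 82.2% ± 0.272 (SD, n = 2 p63 libraries) of the 15848 sites with Sox3, and within 50 bp in 59.2% ± 0.0982 (SD, n = 2). Summits of both p63 libraries at the same sites were 34 bp apart in the median and within 100 bp in 87.8%. All distances come from sites that already overlap a Sox3 peak. Median peak widths were 167 and 180 bp in p63 replicates 1 and 2 and 203 bp in Sox3 at 24 hpf. Short distances are thus partly set by the overlap, and distances at shifted overlaps were not tested. Sox3 of 24 hpf and Sox3 of 80% of epiboly were also 39 bp apart, in 3984 sites.

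Distance varied with width and less with p63 strength. Within 100 bp were 89.7% ± 0.0148 (SD, n = 2) of the narrowest sites, 84.5% ± 0.118 of the middle ones and 73.8% ± 0.883 of the widest. Across p63 quintiles the share was lowest in the weakest, 76.3% ± 1.13 (SD, n = 2), and highest in quintile 4, 86.2% ± 0.297. Already shared sites had 84.2% ± 0.674 and sites of 24 hpf only 81.6% ± 0.137. Of the 8962 sites with no Sox3 peak, 12.4% had a Sox3 peak within 1 kb, 48.9% within 5 kb and 70.2% within 10 kb, with a median distance of 5.14 kb. After the 8 shifts of 100 kb or more, 7.69% ± 0.466 (SD over shifts, n = 8) had one within 1 kb, 38.6% ± 2.07 within 5 kb and 58.7% ± 2.36 within 10 kb, so much of the wider neighbourhood share was also present at shifted positions.

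**Figure D4:**
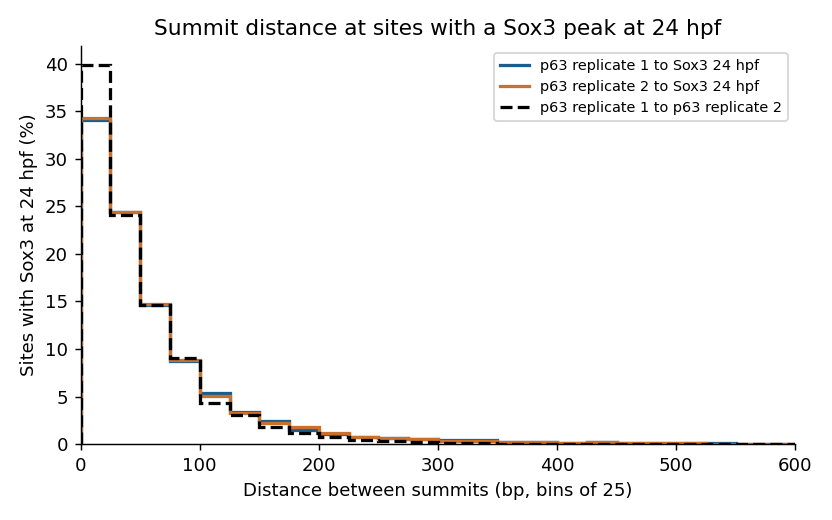
Distance between summits at the 15848 gastrula p63 sites with a Sox3 peak at 24 hpf (x axis, bp, bins of 25 up to 600 bp; y axis, percent of these sites) for p63 replicate 1 and replicate 2 against Sox3, and between both p63 replicates (dashed). The first bin holds 34.0% of the sites for p63 replicate 1 against Sox3 and the median distance is 39 bp, against 34 bp between p63 replicates.

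Single sites show the range behind these shares. They were taken by p63 rank within each class, with 1-based coordinates of the build GRCz10 (danRer10), and no gene was assigned since an annotation of that build was not used here. The strongest site with Sox3 at both stages was chr20:4437676-4438038. Its p63 fold enrichment was 32.6 and 28.3 in replicates 1 and 2, and Sox3 had 31.9 at 80% of epiboly and 34.6 at 24 hpf, the highest rank of the Sox3 list. The next, chr17:53292606-53292893, had p63 values of 28.3 and 27.7 and Sox3 values of 32.8 and 33.6. Both sites had a peak in all 12 lists, including tp63-/- embryos (27.9 and 31.6 at the first, 33.1 and 36.6 at the second). At both, Sox3 summits lay within 19 bp of the p63 summits. In all, 203 sites had a peak in every list, and what their shared signal comes from was not tested.

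Sox3 was of middle rank at most of the top p63 sites with Sox3 only at 24 hpf. The first of them, chr5:65165729-65166214, had p63 values of 18.8 and 16.3 and Sox3 of 13.5, at percentile 88.8 of the Sox3 list. The next 4 had Sox3 values of 6.93 to 9.07 at percentiles 39.96 to 68.5. Of these, chr6:57700212-57700829 had p63 values of 17.2 and 16.1 and Sox3 of 7.32, with the summits 188 and 169 bp apart. All 5 kept p63 in both lists at 24 hpf and at 36 hpf, with fold enrichments of 11.3 to 30.2. In the strongest twentieth of all sites by p63 rank, 87.7% kept p63 in both lists at 24 hpf. At 36 hpf p63 had a peak at 57.8% and 48.3% of the strongest quintile in replicates 1 and 2.

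Among the strongest p63 sites without Sox3 at either stage, chr9:14017506-14017944 had p63 values of 21.4 and 19.1, and the nearest Sox3 peak was 2.31 kb away. At chr5:6816726-6817247, with 19.8 and 17.2, it was 27.4 kb away. These 5 sites had p63 peaks in both lists at 24 hpf, as did 87.7% of the strongest twentieth of all sites. At 36 hpf 4 of the 5 had p63 peaks in both lists. The exception, chr12:36404562-36404936, had p63 in replicate 1 only at 36 hpf, at 13.8. A Sox3 peak appeared at 36 hpf at 1 of the 5, chr9:13037419-13037833, with 10.4 in WT replicate 1 and 11.5 and 7.52 in the tp63-/- libraries.

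The number of sites with Sox3 in the gastrula and not at 24 hpf depended on list length. They were few with the complete 24 hpf list. When it was shortened to its 6045 strongest peaks, it marked only 42.9% of the sites with gastrula Sox3. With the complete list, the median gastrula Sox3 fold enrichment of these few sites was 7.45, against 7.74 at sites of both stages. The highest in p63 rank, chr14:32568958-32569541, had p63 values of 12.8 and 10.7 and a gastrula Sox3 value of 7.37 from a pileup of 15 tags. At chr5:51468370-51469024 the p63 values were 11.9 and 10.7 and Sox3 8.78, and at chr1:24182427-24182915 they were 12.9 and 12.6 and Sox3 9.82. Both of the latter had a Sox3 peak again in tp63-/- embryos at 36 hpf, in 1 and in 2 lists, and in no WT list of that stage.

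The 5 strongest Sox3 peaks of 24 hpf in the top p63 quintile included sites without a called p63 peak at 36 hpf. Among all sites with Sox3 in this quintile, p63 had a peak at 36 hpf at 54.1% and 44.9% in replicates 1 and 2. Its absence was thus not particular to the strongest Sox3 peaks. The p63 lists of 36 hpf came from 5.63 M and at most 1.04 M tags, so weaker p63 binding there may have been missed. Besides the pair on chromosomes 20 and 17, chr7:40697045-40697549 had a Sox3 value of 19.0 at 24 hpf and p63 values of 8.65 and 8.14 in the gastrula. At chr20:20660268-20660677 Sox3 was 19.8 and p63 9.83 and 11.9. Both had no p63 peak at 36 hpf in either list, with Sox3 of 18.7 to 23.2 and 17.6 to 22.2 in the 4 Sox3 libraries of 36 hpf. At the last of the 5 sites, chr22:39221272-39222297, a wide region of 1026 bp, the strong Sox3 summit was 691 and 661 bp from the p63 summits.

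Taken over all p63 ranks, sites with p63 peaks in both 24 hpf lists (kept) and in neither (gone) differed in Sox3 share by few points. Those lists came from 12.1 M and 16.5 M tags, against 20.9 M and 25.1 M in the gastrula. A site counted as gone had no called peak and may still have been bound more weakly. p63 had a peak in neither 24 hpf list at 12183 sites (49.1%), in 1 list at 6125 and in both at 6502, against 6.77% of all regions of the series with both. Sox3 was present at 59.0% of the sites where p63 was gone, at 75.9% with 1 p63 list and at 61.8% with both. Both and neither differed by a log2 odds ratio of 0.17 ± 0.05 (SE; two-sided Fisher's exact test, p = 0.000217, adjusted p = 0.000289). The difference over all ranks was not present without the already shared sites. Without them Sox3 was at 54.4% of sites with p63 gone and at 54.2% with p63 kept, and the log2 odds ratio was -0.0129 (Fisher's exact test, p = 0.8). With peaks of −log10 q of at least 10 in all lists it was -0.89, and with all lists at the length of the shortest -0.90. The median gastrula p63 rank was 51.1 where p63 was gone and 85.3 where it was kept. Within each p63 quintile of all sites, the Sox3 share was higher where p63 was kept. It was 62.6% against 57.5% in the weakest quintile, 62.6% against 61.6% in quintile 2 and 59.5% against 45.4% in the strongest. Quintiles without the already shared sites were not tested.

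The highest share, at sites with p63 in 1 of the 24 hpf lists, was similar for either list. It was 76.3% for the 1052 sites of replicate 1 only and 75.8% for the 5073 sites of replicate 2 only. It exceeded the share of the sites with both lists and with neither in each p63 quintile. In quintile 4 the values were 58.2% with p63 gone, 81.6% with 1 list and 63.9% with both, and in the strongest 45.4%, 63.8% and 59.5%.

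At 36 hpf p63 was less frequent at sites that had carried Sox3. A p63 peak was present in replicates 1 and 2 at 20.4% and 14.8% of the sites with Sox3 only at 24 hpf, at 15.7% and 8.89% of those with Sox3 at both stages, and at 32.4% and 25.5% of those with Sox3 at neither. The 379 sites with Sox3 only at 80% of epiboly had 5.80% and 3.96%, and all regions of the series 10.9% and 6.13%. Sites with Sox3 were below those without in every p63 rank quintile and in both replicates. In the strongest quintile the values were 54.1% and 44.9% with Sox3 against 62.95% and 53.1% without, and in quintile 4 18.3% and 10.5% against 36.1% and 29.4%. The p63 lists of 36 hpf came from 5.63 M and at most 1.04 M tags. At 24 hpf this order was not general. There p63 was at 29.7% and 47.7% of sites with Sox3 only at 24 hpf and at 31.5% and 42.6% of sites with neither, so the replicates differed. Sites with Sox3 at both stages had 32.6% and 55.1%, above those with neither in both replicates. Those with Sox3 only at 80% of epiboly had 8.97% and 14.5%.

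At part of the sites, Sox3 of 24 hpf was found again in the WT lists of 36 hpf. A peak was present in WT replicates 1 and 2 at 83.2% and 73.5% of sites with Sox3 at both earlier stages, at 54.0% and 39.6% of sites of 24 hpf only and at 5.97% and 3.10% of sites with neither. A peak in both WT lists was present at 44.3% of the sites with Sox3 at 24 hpf and at 1.85% of those without. In the class of 24 hpf only it was at 35.5%. Over all regions of the series, WT replicates 1 and 2 had a peak at 32.4% and 18.3%. They came from 7.97 M and 5.75 M tags, against 11.6 M for Sox3 at 24 hpf. The study's own counts of uniquely mapped reads have the opposite order, with more reads in both WT libraries of 36 hpf. Weaker binding may have been missed, and the part of depth was not tested.

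In tp63-/- embryos the shares were higher in each class. They were 94.2% and 93.3% for both stages, 75.1% and 70.6% for 24 hpf only, 34.3% and 31.7% for 80% of epiboly only and 13.2% and 10.9% for neither. WT and mutant libraries did not overlap in any class. Over all regions of the series the shares were also higher in the mutant lists, 52.0% and 38.0% against 32.4% and 18.3% in WT, and whether the rise at the sites differs from that was not tested. Peak calling used a larger tag number for each mutant library, 14.1 M and 12.9 M against 7.97 M and 5.75 M in WT. The study's own counts of uniquely mapped reads do not separate the genotypes, and mutant replicate 2 has the lowest. The study also pooled fewer embryos for the mutant libraries. Genotype, tag number and embryo number thus cannot be told apart in these lists.

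**Figure D5:**
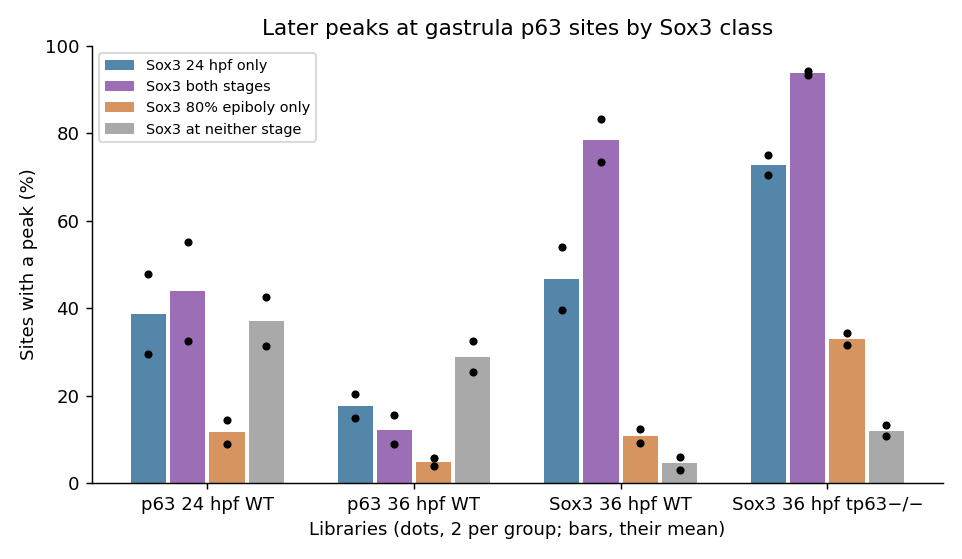
Percent of gastrula p63 sites with a later peak (y axis) by library group (x axis) and Sox3 class (colours). Dots are the 2 libraries of each group and bars their mean. p63 at 36 hpf is highest at sites with Sox3 at neither stage (32.4% and 25.5%), and Sox3 at 36 hpf is highest at sites with Sox3 at both earlier stages in WT (83.2% and 73.5%) and tp63-/- embryos (94.2% and 93.3%).

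Overlap with Sox3 was spread over the genome. Across chromosomes 1 to 25 the share of sites with Sox3 at 24 hpf went from 57.5% on chromosome 4 (738 sites) to 67.4% on chromosome 22 (745 sites), with a median of 63.8%. Sites that stood alone had Sox3 less often. The share was 65.8% (64.1% to 67.6%) where another site lay within 1 kb and 64.7% (63.7% to 65.6%) at 10 to 50 kb. Where the nearest site was over 50 kb away it was 55.9% (54.1% to 57.6%), at a median p63 rank of 58.3 against 63.8 for the closest. After the shifts the share was also lower at these isolated sites, 3.06% against 3.66% for the closest. Whether the observed difference exceeds that of the shifts was not tested.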

How the data were processed

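p63 and Sox3 ChIPmentation peak lists of zebrafish embryos were analysed, 1 list per library. Per the submitters' notes and the study's methods, the authors aligned reads to GRCz10 (danRer10) with Bowtie and called narrow peaks with MACS2 on each library, with a false discovery rate limit of 0.001 and a genome size of 1.5 Gb. Versions are not given in the sources used here. Deposited fold enrichments divide the summit pileup by the background around the peak, after adding 1 to both, and are thus a ratio within a library. The authors' significance columns are −log10 p and −log10 q, and their integer score column, 10 times −log10 q without decimals, was not needed. These values are not scaled between libraries and were used to rank and describe peaks within a list. The exceptions are the alternatives that set a common limit for all lists, a fold enrichment of at least 5 or −log10 q of at least 10. The part of depth in these limits was not tested. The study also names a limit on fold enrichment, tried here as an alternative (at least 5). Pileup, background and tag number were recovered from the ratio and −log10 p with the Poisson model used by MACS2, which gave back −log10 p to within 0.000217 in the 4 lists compared.

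Overlaps of at least 1 bp were counted with Python 3.11.15 (pandas 2.3.3, numpy 2.4.6). Shifts were fixed, from 5 to 1000 kb in both directions, with wrap at the last peak end of each sequence. Intervals are 95% Clopper-Pearson intervals. The 4 Fisher's exact tests (scipy 1.17.1) were adjusted by the Benjamini-Hochberg procedure. Sites are not replicates, so they measure counting error in these libraries only. The code was tested on simulated data. Named sites, on chromosomes 1 to 25, were the 5 with the highest mean p63 percentile in each of 3 Sox3 classes, the 3 with Sox3 at 80% of epiboly only, and the 5 of the top p63 quintile with the highest Sox3 −log10 q at 24 hpf. The sites, comparisons and alternatives were chosen with earlier results of these data known.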

Additional observations from a re-analysis of the deposited data

How the results depend on the processing

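Higher Sox3 occupancy at already shared sites held, with its direction and its test, under all 8 alternatives that give it. Results on p63 rank and on p63 at 24 hpf did not. The cause of these changes was not tested. Leaving out a p63 list also changes the set of sites, which then includes peaks found only in the remaining list. Such peaks had a lower median fold enrichment than the sites.

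The share of sites with Sox3 (63.9%) was 50.9% for a p63 peak in either list, 60.1% with the Sox3 summit inside the site and 50.04% for an overlap of 50% of both intervals. It was 61.5% at a fold enrichment of at least 5, 51.4% at −log10 q of at least 10, 14.1% with the Sox3 list shortened to the gastrula Sox3 list and 16.0% with all lists at the length of the shortest. Single p63 lists gave 54.2% to 55.5%. Higher shares in both lists than in 1 list turned only with all lists at the shortest length (log2 odds ratio -0.71, Fisher's exact test, p = 1.2e-16).

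The log2 odds ratio of the strongest against the weakest p63 quintile (-0.17) turned to 1.41 (Fisher's exact test, p = 1.37e-50) with the shortened Sox3 list, 0.33 (p = 0.111) in the narrowest sites and 0.81 to 1.17 when 1 replicate was left out. The share of quintile 4 minus that of the strongest quintile (9.59 points) was 6.92 at −log10 q of at least 10, 6.33 with the shortened Sox3 list, 0.533 with all lists shortened, 15.2 and 15.5 in the middle and widest sites, -5.10 in the narrowest sites and 2.20 to 4.91 with 1 replicate left out. p63 kept against gone at 24 hpf (0.17) was 0.00669 (p = 0.901, Fisher's exact test) at a fold enrichment of at least 5 and turned to -0.89 at −log10 q of at least 10 and -0.90 with all lists shortened.

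The Sox3 percentile difference at and away from sites (32.2) was 31.9 at a fold enrichment of at least 5, 27.4 at −log10 q of at least 10, 5.44 with the shortened Sox3 list, 14.1 with all lists shortened, 32.3 on chromosomes 1 to 25, 29.8 by fold enrichment, 26.4 without already shared sites and 31.0 with either replicate left out. The percentage within 100 bp (82.2) was 84.1, 85.7, 86.5 and 86.1 under the first 4 of these settings, 81.8 for the strongest Sox3 peak of a site and 80.9 to 81.1 with 1 replicate left out, and 59.2 lay within 50 bp. The excess over shifts (19.2) was 23.2 at −log10 q of at least 10, 31.8 and 27.1 with the shortened Sox3 list and all lists shortened, and 15.8, 14.3, 15.5, 16.5 and 17.2 for shifts of 5, 10, 20, 50 and 100 kb.

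Alternatives chosen after seeing the data left out already shared sites (p63 kept against gone -0.0129, Fisher's exact test p = 0.8) or the 203 sites with a peak in every list (Sox3 percentile difference 31.9). Motif and nearby-gene analyses were not run, since a genome of that build was not used here. The other overlap rules were applied to the share of sites only, and a single p63 list allows no comparison of both lists with 1. No paired analysis was possible because 2 p63 libraries were compared with 1 Sox3 library that has no replicate number.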
